A study of Homo sapiens with 30 samples.

Results

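Okbyeongpung-san, a herbal formula known in Chinese medicine as Yu-ping-feng-san, was given to SW1783 cells at 500 µg/mL for 24 h, and the transcriptome was compared with that of cells given the DMSO vehicle. SW1783 is an established human astrocytoma line. The comparison rests on 5 of the 30 libraries of the series, namely 2 libraries of the ethanol extract at 500 µg/mL (replicates 2 and 3) and 3 vehicle libraries (replicates 1, 2 and 3), all from the same line harvested at 24 h. The libraries were chosen by treatment and concentration in their labels. All 16643 genes that passed a filter on low counts, of 60675 entries in the table, were tested. The text on the series states that any extract whose IC20 (the concentration that inhibits by 20%) was below 500 µg/mL was used at that lower concentration. Whether this applied to Okbyeongpung-san is not given, and the concentrations here are those of the labels. The DMSO content of the vehicle is 0.1% by the labels of the samples but another value by the text on the series, which was not resolved. Library totals ran from 24.1 to 27.3 M estimated counts. Whether replicates were grown as separate cultures is not stated, so the p-values rest on the spread of these libraries alone, which may be technical. Titles place replicate 2 of the extract and all vehicle libraries in batch E and replicate 3 in batch D, and the vehicle libraries also carry library names of a separate set. Extract and library set cannot be told apart in the contrast with vehicle. Values of the 4 libraries of the same extract at 20 and 100 µg/mL, which carry library names of the extract set, are therefore given beside the results.

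Cells answer oxidants and reactive plant compounds through NRF2, a transcription factor that is normally held down by KEAP1 and, once released, switches on genes for glutathione, thioredoxin, heme and iron handling through antioxidant response elements. Shortage of amino acids, endoplasmic reticulum stress and heme deficiency raise translation of ATF4, which induces amino acid synthesis, amino acid transport and tRNA charging through amino acid response elements. The proteasome, a barrel of proteolytic subunits (the 20S core) with a cap that recognises ubiquitin and unfolds substrates (the 19S particle), is built from subunits whose genes are known to be induced together by NFE2L1 (NRF1) in human cells when proteasome capacity falls short.

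Promoters of 6 genes that rose with the extract are shown because they hold the letters of these elements and stand for the groups of NRF2 targets, ATF4 targets and proteasome subunits described below. The sequences are from RefSeq (GRCh38.p14) and run from 250 bases before to 50 bases after the annotated start, 5′ to 3′ on the strand of the gene. Capitals mark matches on either strand to TGACNNNGC (antioxidant response element) in the promoters of GCLM (chr1:93909381-93909680, minus strand), ME1 (chr6:83431002-83431301, minus strand) and PSMD3 (chr17:39980557-39980856, plus strand), and to TGATGNAA (amino acid response element) in those of ASNS (chr7:97872359-97872658, minus strand), IARS1 (chr9:92293648-92293947, minus strand) and MARS1 (chr12:57487818-57488117, plus strand).
GCLM: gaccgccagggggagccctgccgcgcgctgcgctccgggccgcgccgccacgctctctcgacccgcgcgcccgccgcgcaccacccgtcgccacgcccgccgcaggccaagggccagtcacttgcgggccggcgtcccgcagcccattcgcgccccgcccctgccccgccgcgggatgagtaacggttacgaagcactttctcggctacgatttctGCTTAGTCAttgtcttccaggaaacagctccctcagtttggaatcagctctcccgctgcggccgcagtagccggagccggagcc
ME1: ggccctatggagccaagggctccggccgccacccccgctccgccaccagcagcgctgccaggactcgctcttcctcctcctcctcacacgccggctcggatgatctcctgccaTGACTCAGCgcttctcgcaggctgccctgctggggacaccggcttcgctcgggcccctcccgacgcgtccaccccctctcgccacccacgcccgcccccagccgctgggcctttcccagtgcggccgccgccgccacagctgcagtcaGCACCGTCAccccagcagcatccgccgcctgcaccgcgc
PSMD3: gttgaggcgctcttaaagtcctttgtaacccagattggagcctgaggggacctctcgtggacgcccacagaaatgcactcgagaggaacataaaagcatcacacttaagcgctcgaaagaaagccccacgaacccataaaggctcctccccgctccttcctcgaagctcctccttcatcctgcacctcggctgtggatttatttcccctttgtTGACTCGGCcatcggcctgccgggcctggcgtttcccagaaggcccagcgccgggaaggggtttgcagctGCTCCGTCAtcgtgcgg
ASNS: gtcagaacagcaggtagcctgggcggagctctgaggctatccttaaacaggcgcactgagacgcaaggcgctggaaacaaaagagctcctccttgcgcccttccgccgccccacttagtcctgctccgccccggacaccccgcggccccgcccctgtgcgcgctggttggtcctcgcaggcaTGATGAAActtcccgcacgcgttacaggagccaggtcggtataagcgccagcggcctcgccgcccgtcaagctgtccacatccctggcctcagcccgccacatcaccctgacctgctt
IARS1: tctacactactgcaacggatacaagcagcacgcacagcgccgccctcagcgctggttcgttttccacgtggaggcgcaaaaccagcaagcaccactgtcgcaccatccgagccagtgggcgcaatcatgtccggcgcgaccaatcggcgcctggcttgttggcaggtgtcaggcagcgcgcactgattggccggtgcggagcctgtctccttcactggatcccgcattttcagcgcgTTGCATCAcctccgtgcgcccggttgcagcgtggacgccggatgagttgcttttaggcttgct
MARS1: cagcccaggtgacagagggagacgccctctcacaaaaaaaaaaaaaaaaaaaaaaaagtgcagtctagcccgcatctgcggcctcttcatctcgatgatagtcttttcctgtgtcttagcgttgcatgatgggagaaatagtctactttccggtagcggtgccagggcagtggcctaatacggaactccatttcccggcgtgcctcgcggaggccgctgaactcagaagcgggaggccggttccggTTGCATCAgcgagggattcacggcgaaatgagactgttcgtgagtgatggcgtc
The antioxidant element letters were present in 13.6% of the 27305 promoters of this length, in 18.9% of the 1719 promoters of genes called higher, in 12.6% of the 1384 of genes called lower and in 14.7% of the 8498 of genes tested and not called. They stood in 8 of 34 listed NRF2 targets with a promoter sequence (23.5%) and in 5 of 26 proteasome genes (19.2%). The amino acid element letters were present in 3.67% of all promoters, 2.73% of those of genes called higher, 1.01% of those of genes called lower and 1.61% of those tested and not called, and in 11 of 41 listed ATF4 targets (26.8%). Among the 10 genes of tRNA charging 5 held the amino acid element letters, AARS1, NARS1, MARS1, IARS1 and CARS1. The antioxidant letters also stood in 11 of the 41 ATF4 targets. No promoter held matches to both motifs that overlapped. A match is a run of letters, and binding was not measured.

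Between Okbyeongpung-san 500 and vehicle, 4113 of 16643 genes (24.7%) passed an adjusted p of 0.05 in edgeR's quasi-likelihood F test, adjusted by Benjamini-Hochberg over all genes. Of these 2209 (13.3%) were higher and 1904 (11.4%) lower with the extract, and 480 (2.88%) changed at least 2-fold, 240 in each direction (1.44% each). The libraries of the groups did not overlap in 53.2% of all genes, 28.1% above and 25% below vehicle. Genes are named by a rule on the size of their change within the table and within each list, and others were chosen after their values were seen. "Called" below means past this threshold, "rose" and "fell" are used of called genes, and fold changes are log2 values of Okbyeongpung-san 500 over vehicle with their standard error (SE). Levels are TMM-scaled CPM (counts scaled to library size), with replicates 2 and 3 of the extract given in that order and vehicle replicates 1, 2 and 3 in theirs. In bulk RNA fewer cells of a type and less RNA per cell cannot be told apart. With library totals in place of TMM scaling, 68.04% of calls were higher instead of 53.71%. Within title batch E, with replicate 2 of the extract alone against the 3 vehicle libraries, 3869 genes were called, and 3062 of the 4113 calls were among them in the same direction. Without replicate 2, 2228 genes were called, and the count was 2488 without vehicle replicate 2 and 2513 without vehicle replicate 3.

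Among 31 gene lists, those with the largest share of members called higher were the proteasome (29 of 31), metallothioneins (4 of 5) and NRF2 targets (34 of 44), beside 13.3% of all genes. Those with the largest share called lower were mitochondrially encoded transcripts (12 of 13), targets of the coactivator YAP and the actin-responsive factor SRF (12 of 22) and DNA replication (20 of 42), beside 11.4% of all genes. The median log2 fold change over all tested genes was 0.01.

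**Figure D1:**
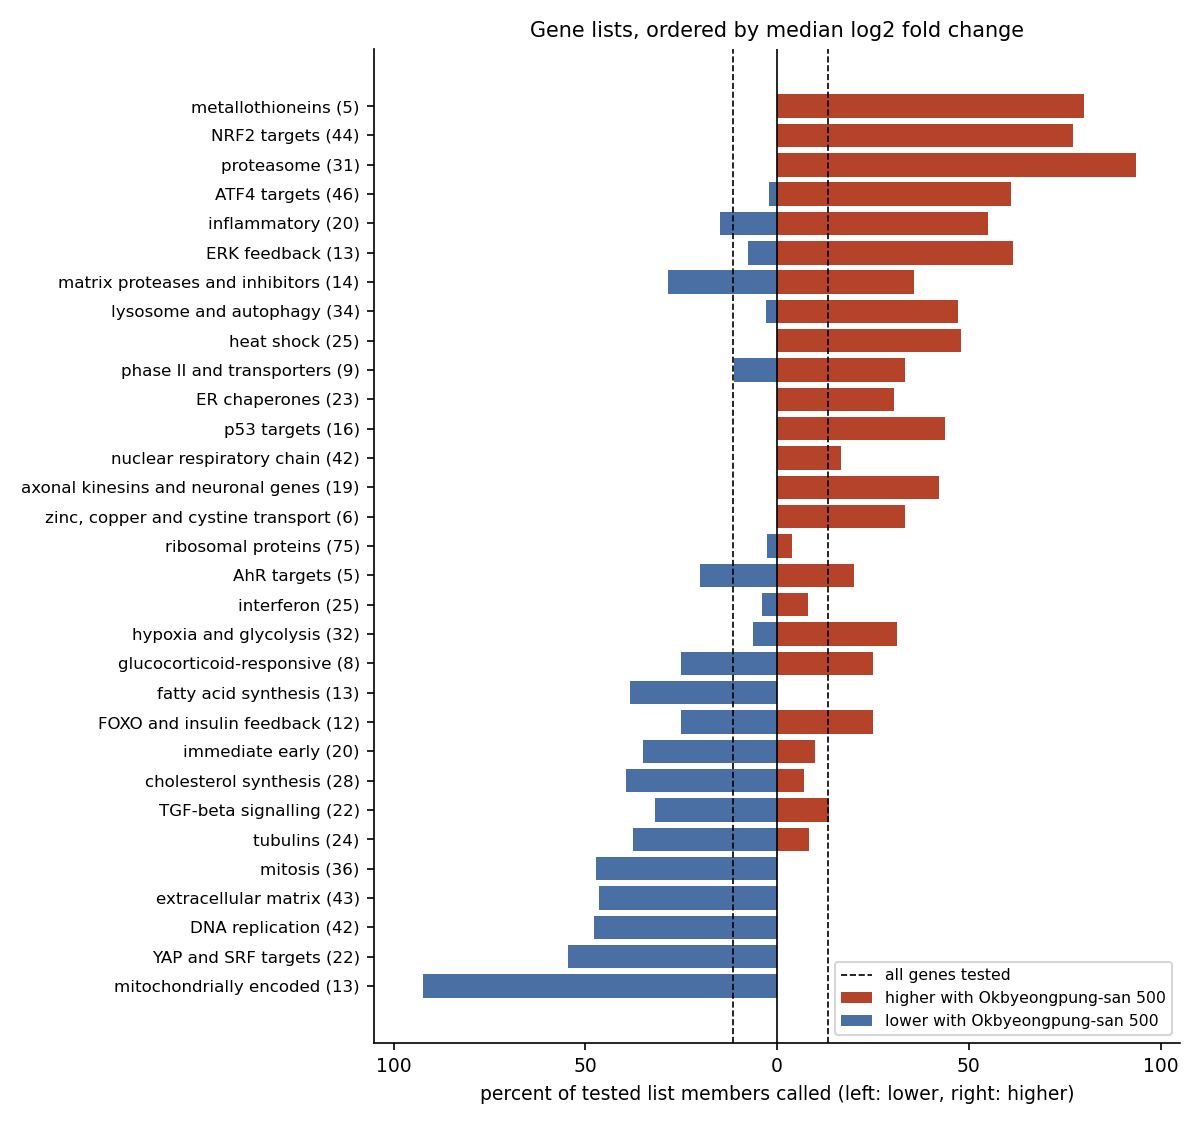
Percentage of the tested members of each gene list that were called higher (right, red) or lower (left, blue) with Okbyeongpung-san 500 against vehicle, with the number tested in brackets and lists ordered by median log2 fold change. Dashed lines mark the shares over all 16643 genes, 13.3% higher and 11.4% lower, and the bar of the proteasome reaches farthest to the right.

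The NRF2 group rose broadly. Of 44 tested targets 34 rose, 0 fell and 10 were not called, with a median log2 fold change of 0.74. The heme and iron genes rose in 6 of 6. HMOX1 (heme oxygenase, chr22:35380361-35394214), which opens the heme ring and frees its iron, was at 411 and 457 CPM with Okbyeongpung-san 500, against 59.3, 55.7 and 54.7 CPM in vehicle, and all extract libraries lay far above all vehicle libraries (fold change 2.94 ± 0.07, adjusted p = 3.75e-08). This was the smallest p in the table. FTL and FTH1, the light and heavy chains of the iron store ferritin, gained more CPM than any other gene, a measure that also grows with transcript length. FTL stood at 2383 and 3386 CPM with Okbyeongpung-san 500, against 1343, 1282 and 1177 CPM in vehicle (1.19 ± 0.16, adjusted p = 0.000755), and FTH1 at 2352 and 2877 CPM with Okbyeongpung-san 500, against 1149, 1226 and 1214 CPM in vehicle (1.13 ± 0.13). The extract libraries differed from each other in FTL, with replicate 3 the higher. Ferritin has many processed pseudogenes that can share its reads. BLVRB, a biliverdin reductase, FECH, the ferrochelatase, and SLC48A1, a heme transporter, rose by 1.00, 0.63 and 0.71.

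In the thioredoxin branch 5 of 5 genes rose, though the PRDX1 call was lost in 4 of the 5 fits that leave out a library. SRXN1, the sulfiredoxin that repairs overoxidised peroxiredoxins, was at 211 and 212 CPM with Okbyeongpung-san 500, against 89.6, 87.2 and 84.5 CPM in vehicle (1.28 ± 0.07, adjusted p = 6.61e-06). TXNRD1, the thioredoxin reductase, rose by 0.82 ± 0.07 and its substrate TXN by 0.77 ± 0.13. In the glutathione branch 5 of 8 rose. SLC7A11, the cystine importer that feeds glutathione synthesis, was at 361 and 316 CPM with Okbyeongpung-san 500, against 114, 129 and 135 CPM in vehicle (1.42 ± 0.11, adjusted p = 5.7e-05). The subunits of the rate-limiting ligase also rose, GCLM by 1.16 ± 0.08 and GCLC by 0.96 ± 0.07, and so did the glutathione reductase GSR by 0.78 ± 0.07. The exporters ABCC1, ABCC2 and ABCC3 were the glutathione members not called, at -0.23, 0.73 and 0.08.

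Quinone and carbonyl reductases rose in 9 of 11. AKR1C1, an aldo-keto reductase with close paralogs that can share its reads, was at 74.1 and 74.6 CPM with Okbyeongpung-san 500, against 22.3, 18.4 and 22.5 CPM in vehicle (1.82 ± 0.09, adjusted p = 3.62e-06). NQO1, the quinone reductase often used as an NRF2 readout, rose by 0.64 ± 0.08. Among suppliers of NADPH 4 of 6 rose, with ME1, the malic enzyme, rising by 1.36 ± 0.08 and PGD, of the pentose phosphate path, by 0.75 ± 0.07, while TKT of the same path was not called (-0.08). SQSTM1 (p62, chr5:179806398-179838078), the autophagy receptor that also binds KEAP1, was at 1826 and 1847 CPM with Okbyeongpung-san 500, against 555, 529 and 522 CPM in vehicle (1.78 ± 0.07, adjusted p = 1.07e-06). PIR, a nuclear iron-binding protein, rose by 1.51 ± 0.12. The transcripts of NRF2 itself and of KEAP1 were not called, NFE2L2 at -0.05 (adjusted p = 0.657) and KEAP1 at 0.27 (adjusted p = 0.108). Without each library in turn, between 29 and 33 NRF2 targets were called higher.

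**Figure D2:**
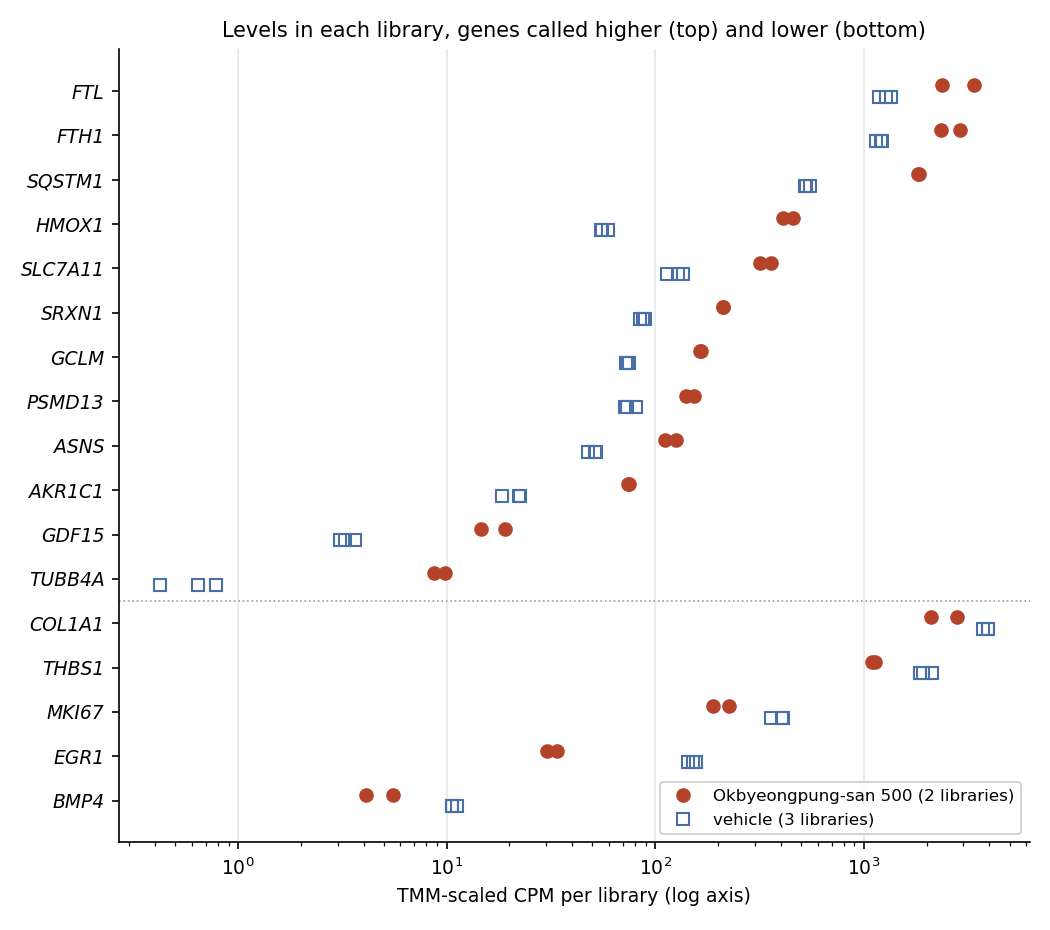
TMM-scaled CPM in each library (log axis) for 17 genes, with the 2 Okbyeongpung-san 500 libraries as filled red circles above the 3 vehicle libraries as open blue squares. In the upper 12 genes the extract libraries lie to the right of every vehicle library (HMOX1 at 411 and 457 CPM), and in the lower 5 genes to the left (EGR1 at 30.3 and 33.9 CPM).

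The constitutive proteasome rose nearly as a whole. In the 20S core 13 of 14 genes rose and in the 19S particle 16 of 17, with 0 lower and a median log2 fold change of 0.67 over the 31 genes. PSMD13, a lid subunit (chr11:236546-252984), was at 154 and 141 CPM with Okbyeongpung-san 500, against 80.7, 73.3 and 71.8 CPM in vehicle (0.97 ± 0.08, adjusted p = 5.65e-05). PSMA6 and PSMA3, alpha-ring subunits of the core, stood at 262 and 266 CPM and at 165 and 144 CPM with the extract, against 144, 138 and 124 CPM and 86.6, 82.9 and 75.2 CPM in vehicle (0.97 ± 0.08 and 0.92 ± 0.09). PSMC6, an ATPase of the base, rose by 0.90 ± 0.08. The catalytic subunits PSMB5, PSMB6 and PSMB7 rose by 0.78, 0.67 and 0.57. Fold changes of the called members lay between 0.41 (PSMB2) and 0.97 (PSMD13), so the rise was smaller per gene than that of HMOX1 but shared by nearly all subunits. The exceptions were PSMA7 (0.33 ± 0.14, adjusted p = 0.102) and PSMD8 (0.31 ± 0.12, adjusted p = 0.095), which were not called.

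The rise was seen at the highest concentration. Median log2 fold changes of the same 31 genes against vehicle were 0.01 at 20 µg/mL and 0.00 at 100 µg/mL, and in 30 of 31 both libraries at 500 µg/mL lay above all 3 vehicle and all 4 lower-dose libraries (14% of all genes did so). Within the extract set, 30 of 31 were called higher at 500 than at 20 µg/mL, beside 5.21% of all genes higher and 5.1% lower. Without each library in turn, 25 to 30 members were called higher against vehicle. PSMB2 was not called in 4 of those 5 fits, PSMB7 and PSMA2 in 3 and PSMB3 in 1.

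Genes for other parts of the system, gathered after the proteasome values had been seen, moved less evenly. The cap subunits SEM1 and ADRM1 rose by 0.84 ± 0.24 and 0.46 ± 0.10. POMP, the maturation factor that builds new cores, was at 202 and 202 CPM with Okbyeongpung-san 500, against 120.1, 111 and 109 CPM in vehicle (0.83 ± 0.18, adjusted p = 0.00901), and of the 8 assembly genes tested POMP and the chaperone PSMD9 rose. The interferon-inducible subunits PSMB8, PSMB9 and PSMB10 were not called (fold changes of 0.15, -0.31 and 0.09). Of 5 activators and inhibitors PSME4, the PA200 cap, rose (0.39 ± 0.10). Ubiquitin and the p97 segregase, which pulls substrates from complexes and membranes, rose in part. VCP, which encodes p97, was at 828 and 736 CPM with Okbyeongpung-san 500, against 546, 502 and 517 CPM in vehicle (0.58 ± 0.07). Its cofactors UFD1 and NPLOC4 rose by 0.69 ± 0.07 and 0.50 ± 0.07, and 8 of 15 genes of this kind rose in all, with 0 lower. NFE2L1, the transcription factor named above, was at 522 and 505 CPM with Okbyeongpung-san 500, against 503, 507 and 514 CPM in vehicle, and its transcript was not called (adjusted p = 0.886). With each library left out in turn 1 to 3 of the 18 related proteasome genes were called higher and 0 lower, except that without replicate 3 of the extract 2 were called in each direction, PSMB9 and PSMF1 being the lower ones. SEM1 and PSMD9 were called in none of those 5 fits (largest adjusted p = 0.119 and 0.241), PSME4 was not called in 3, POMP was at 0.0528 without replicate 2 of the extract and ADRM1 at 0.0535 without replicate 3. Of the ubiquitin and p97 genes 7 or 8 were called in each.

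**Figure D3:**
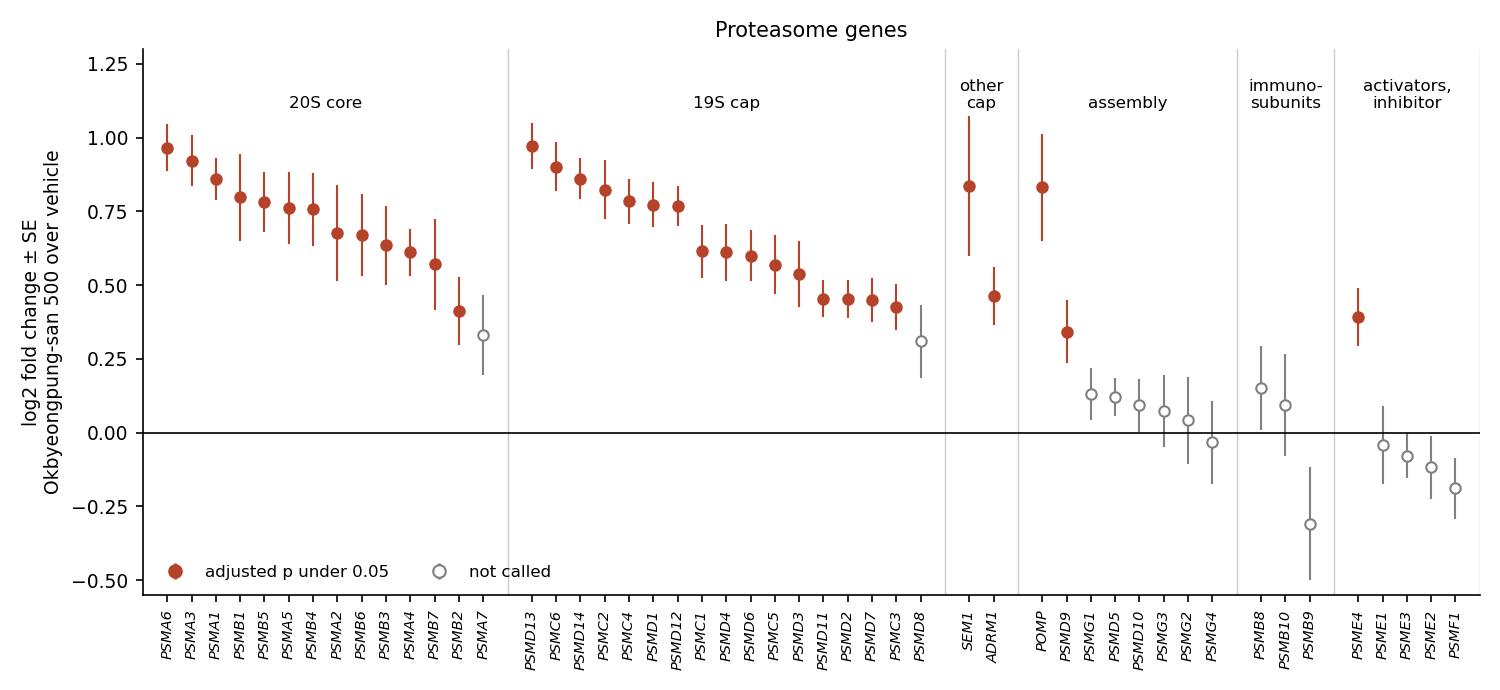
Log2 fold change of Okbyeongpung-san 500 over vehicle with its standard error for 31 constitutive proteasome genes and 18 related genes, ordered within each class. Filled red points passed an adjusted p of 0.05. In the core and cap classes 29 of 31 points are filled, while all 3 interferon-inducible subunits (immuno-subunits) are open.

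ATF4 targets rose in 28 of 46, with 1 lower and a median of 0.41. GDF15, a secreted stress cytokine, was at 14.6 and 19.1 CPM with Okbyeongpung-san 500, against 3.08, 3.63 and 3.27 CPM in vehicle (2.34 ± 0.18, adjusted p = 4.34e-05). ASNS, the asparagine synthetase whose promoter is printed above (chr7:97852118-97872542), was at 126 and 111 CPM with Okbyeongpung-san 500, against 51.9, 51.6 and 47.5 CPM in vehicle (1.24 ± 0.08, adjusted p = 1.38e-05), and TRIB3, a pseudokinase that restrains the pathway, at 58.9 and 48.7 CPM with Okbyeongpung-san 500, against 24.8, 23.8 and 23.7 CPM in vehicle (1.16 ± 0.09). These 3 genes did not overlap between the groups. By role, tRNA charging rose in 9 of 10, transcription factors in 6 of 8, amino acid synthesis in 7 of 12 and amino acid transport in 2 of 7. The calls of EPRS1, ATF3 and MTHFD2 were lost in 4 of the 5 fits that leave out a library. Those of CARS1, ALDH1L2 and the ATF4 transcript itself were lost in 3, and that of CEBPB in 1. Between 500 and 20 µg/mL, 5 tRNA charging genes, 6 transcription factors, 6 genes of amino acid synthesis and 3 of transport were called higher. GARS1, the glycyl-tRNA synthetase, rose by 0.73 ± 0.08, IARS1 by 0.54 ± 0.10 and MARS1 by 0.47 ± 0.07, and WARS1 was the tRNA gene not called (0.14). Of the serine path PSAT1 rose by 0.80 ± 0.07 and PHGDH by 0.46 ± 0.09. DDIT3 (CHOP) rose by 0.76 ± 0.14 and NUPR1, a stress regulator, by 1.09 ± 0.16. The member that fell was ATF5 (-0.34 ± 0.10, adjusted p = 0.0285), a call made in 1 of the 5 fits that leave out a library (adjusted p up to 0.144). CHAC1, a glutathione-degrading enzyme of the ATF4 and CHOP arm, was not called (0.16 ± 0.14). Between 23 and 26 targets were called higher without each library in turn.

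Chaperones moved less than these groups. Of 23 genes of the endoplasmic reticulum 7 rose and 0 fell. DNAJB9, a co-chaperone of BiP, rose by 0.65 ± 0.06 and HERPUD1, of the degradation machinery, by 0.47 ± 0.07. HSPA5 (BiP) was at 4668 and 3602 CPM with Okbyeongpung-san 500, against 3280.5, 3361 and 3326 CPM in vehicle, so replicate 2 was the higher, and its call (0.32 ± 0.09, adjusted p = 0.0358) was lost without vehicle replicate 1, 2 or 3 and without replicate 2 of the extract (adjusted p up to 0.262). The count in this list was 2 without replicate 2 of the extract and 11 without replicate 3, and 3 or 4 without a vehicle library. Of 25 cytosolic and mitochondrial heat shock genes 12 rose and 0 fell, with a median of 0.24. HSPB8, a small heat shock protein that works with autophagy, was at 48.5 and 50.5 CPM with Okbyeongpung-san 500, against 22.9, 22.4 and 21 CPM in vehicle (1.16 ± 0.08). HSPA1A and HSPA1B, near-identical inducible HSP70 genes that share reads, rose by 0.82 ± 0.10 and 0.70 ± 0.09. HSP90AA1, the inducible HSP90, was at 1950.1 and 1538 CPM with Okbyeongpung-san 500, against 1171, 1203 and 1178 CPM in vehicle (0.56 ± 0.10), while the constitutive HSP90AB1, DNAJB1, BAG3 and HSPB1 were not called. HSPA6, a strictly inducible HSP70 absent from that list, was at 1.55 and 1.49 CPM with Okbyeongpung-san 500, against 0.206, 0.242 and 0.127 CPM in vehicle (2.95 ± 0.34). With replicate 2 of the extract left out 6 heat shock genes were called higher, and 6 or 7 without a vehicle library.

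Lysosome and autophagy genes rose in 16 of 34 and fell in 1. GABARAPL1 and MAP1LC3B, which coat the autophagosome, rose by 1.06 ± 0.13 and 0.65 ± 0.08. GLA, the lysosomal alpha-galactosidase, was at 99.1 and 113 CPM with Okbyeongpung-san 500, against 52.9, 49 and 47.8 CPM in vehicle (1.09 ± 0.13), and the cathepsins CTSL and CTSD rose by 0.68 ± 0.13 and 0.51 ± 0.10. The member that fell was TFEB, a regulator of lysosomal genes, at 7.92 and 8.23 CPM with Okbyeongpung-san 500, against 14, 12.3 and 13.8 CPM in vehicle (-0.72 ± 0.11, adjusted p = 0.00146). Without replicate 2 of the extract 10 members of this list were called higher.

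Of 13 genes tied to ferroptosis, a death by iron-driven lipid peroxidation, gathered after values had been seen, 10 rose. The list holds genes that guard membranes and genes that act the other way, such as ACSL4 and TFRC. Of those that rose, FTL, FTH1, SLC7A11, GCLC and GCLM are also in the NRF2 list. AIFM2 (FSP1), which regenerates coenzyme Q at the membrane, was at 24.3 and 23.5 CPM with Okbyeongpung-san 500, against 6.7, 7.46 and 6.4 CPM in vehicle (1.80 ± 0.12, adjusted p = 2.01e-05). GPX3, the secreted glutathione peroxidase, was at 37.7 and 31.5 CPM with Okbyeongpung-san 500, against 8.1, 8.19 and 8.1 CPM in vehicle (2.09 ± 0.11). The libraries of the groups were well apart in both genes. ACSL4, which loads membranes with the fatty acids that peroxidise, rose by 0.43 ± 0.11, a call lost without vehicle replicate 1 or 2 or replicate 2 of the extract (adjusted p up to 0.13). GCH1, which makes the antioxidant tetrahydrobiopterin, rose by 0.44 ± 0.14, a call lost in 4 of the 5 fits that leave out a library (adjusted p up to 0.284). GPX4, the peroxidase that reduces lipid hydroperoxides, the iron importer TFRC and DHODH were not called (-0.06, 0.00 and -0.02). In the metallothionein list, which also holds the zinc exporter SLC30A1, MT2A, a metal-binding protein, was at 291 and 346 CPM with Okbyeongpung-san 500, against 132, 123 and 112 CPM in vehicle (1.38 ± 0.21). Its libraries at 20 µg/mL stood at 149 and 248 CPM, and 0 of the 5 tested members were called between 500 and 20 µg/mL by the same edgeR test. Without replicate 3 of the extract 2 members were called against vehicle.

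Lipid genes known as targets of PPAR receptors, also gathered after values had been seen, rose in 12 of 21 and fell in 0, beside 13.3% and 11.4% of all genes. Genes of lipid droplets and lipase inhibition rose in 2 of 5, and genes of uptake and glycerol in 2 of 5. Among those not called were PLIN3 (-0.27), PLIN4 (-0.32), HILPDA (0.07), ACSL1 (0.12) and AQP3 (-0.42). ANGPTL4, a secreted lipase inhibitor, was at 70.9 and 87.8 CPM with Okbyeongpung-san 500, against 15.7, 10.2 and 12.8 CPM in vehicle (2.62 ± 0.18, adjusted p = 2.47e-05). PLIN2, which coats lipid droplets, was at 155 and 145 CPM with Okbyeongpung-san 500, against 62.3, 55.3 and 58.2 CPM in vehicle (1.35 ± 0.09), and the glycerol kinase GK at 72.3 and 71.5 CPM with Okbyeongpung-san 500, against 28.5, 27.9 and 27.7 CPM in vehicle (1.36 ± 0.06). Fatty acid oxidation rose in 8 of 11, with the mitochondrial thiolase ACAA2 rising by 0.68 ± 0.11 and CPT1A, the entry step, by 0.48 ± 0.09. Of the fits that leave out a library, the HADHB call was lost in all 5, ACADM in 3, HADHA in 2 and PDK4 in 1. Those of ACAA2, ETFDH, CPT1A and ACADVL held in each. Between 500 and 20 µg/mL, ACAA2, CPT1A, ACADVL and PDK4 were also called higher, and ETFDH, HADHB, HADHA and ACADM were not. Of 13 fatty acid synthesis genes 5 fell, 0 rose and 8 were not called (median -0.09). Those that fell included FASN, the synthase, at 238 and 215 CPM with Okbyeongpung-san 500, against 332, 331 and 338 CPM in vehicle (-0.56 ± 0.07), FADS2 (-0.59 ± 0.08) and SCD (-0.55 ± 0.08), both desaturases. Of 28 cholesterol genes 11 fell, 2 rose and 15 were not called (median -0.15). The 7.14% that rose was below the 13.3% of all genes. SREBF1, a master regulator of lipid synthesis (-0.66 ± 0.08), fell, and ABCA1, a cholesterol exporter, rose (0.64 ± 0.12, adjusted p = 0.0571 without replicate 2 of the extract). INSIG1, a sterol sensor of the path, was not called (-0.02). The number of cholesterol genes called lower was 6 without replicate 2 of the extract or without vehicle replicate 2, and 7 without TMM. Of the fatty acid genes 3 were called lower without replicate 2 of the extract. The PPAR count was 8 without replicate 2 of the extract and 9 to 11 without another library.

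Several of the largest fold changes belonged to neuronal and microtubule genes that vehicle cells hardly expressed, though as groups these genes were mixed. TUBB4A, a beta-tubulin of brain (chr19:6494319-6502848), was at 9.77 and 8.7 CPM with Okbyeongpung-san 500, against 0.781, 0.645 and 0.424 CPM in vehicle (3.89 ± 0.21, adjusted p = 5.6e-06). KIF1A, an axonal kinesin, was at 1.85 and 1.7 CPM with Okbyeongpung-san 500, against 0, 0.0807 and 0.0848 CPM in vehicle (4.90 ± 0.52, with 4 counts in all vehicle libraries together), and DYNC1I1, a dynein intermediate chain enriched in neurons, at 3.4 and 1.89 CPM with Okbyeongpung-san 500, against 0.164, 0.242 and 0.0424 CPM in vehicle (4.08 ± 0.46). All were low in absolute terms, and the libraries did not overlap. PPP2R2C, a brain-enriched regulatory subunit of protein phosphatase 2A, was at 0.906 and 1.27 CPM with the extract and at 0 in all vehicle libraries, at least 8.78-fold higher against a floor of 3 counts per library. Members with more reads were MAP1A, a microtubule-associated protein, at 248 and 201 CPM with Okbyeongpung-san 500, against 78.3, 88.7 and 93 CPM in vehicle (1.37 ± 0.11), UCHL1, a neuronal ubiquitin hydrolase, at 75.3 and 87.1 CPM with Okbyeongpung-san 500, against 22.4, 23.4 and 20.3 CPM in vehicle (1.88 ± 0.12), and MLLT11, at 207 and 194 CPM with Okbyeongpung-san 500, against 60.4, 58 and 61.1 CPM in vehicle (1.74 ± 0.07, adjusted p = 1.07e-06). KIAA0319, which encodes a membrane protein linked to neuronal migration, was at 4.57 and 4.53 CPM with Okbyeongpung-san 500, against 0.247, 0.202 and 0.339 CPM in vehicle (4.10 ± 0.27).

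In the list of kinesins and neuronal genes 8 of 19 tested rose and 0 fell, and 10 more were too low to test. Without replicate 2 of the extract 4 were called higher, and 5 without a vehicle library. Of 18 tested genes for microtubule motors and axonal microtubule proteins, gathered after values had been seen, 5 rose and 2 fell, MAP4 (-0.31 ± 0.07) and STMN1 (-0.29 ± 0.08), microtubule regulators of many cells, the STMN1 call being lost in 3 of the 5 fits that leave out a library (adjusted p up to 0.107). Over all genes 13.3% rose and 11.4% fell. In 6 of the 18 both libraries at 500 µg/mL lay above all 7 others and in 4 below them, beside 14% and 13.6% of all genes. Markers of neurons did not share the direction of the kinesin list. Of 9 listed 5 were tested, 0 rose and 1 fell (TUBB3, -0.50 ± 0.12), their summed level was 125 to 148 CPM with the extract and 169 to 178 CPM in vehicle, and DCX was at 0 in all 5 libraries. TUBB, a beta-tubulin of most cells, fell to 1845 and 2301 CPM with the extract, against 2879, 2805 and 2731 CPM in vehicle (-0.44 ± 0.09). In the tubulin list 9 of 24 members fell (37.5%, beside 11.4% of all genes) and 2 rose (8.33%, beside 13.3%), TUBB4A and MAP1A. TUBG1, the gamma-tubulin of microtubule nucleation, fell by 0.50, a call made in 1 of the 5 fits that leave out a library.

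Other genes with the largest rises were GCNT3, a glycosyltransferase of mucin cores, at 2.98 and 3.84 CPM with Okbyeongpung-san 500, against 0, 0.0403 and 0.0848 CPM in vehicle, BHMT2, a methyltransferase of methionine metabolism, at 3.36 and 3.26 CPM with Okbyeongpung-san 500, against 0.206, 0.121 and 0.212 CPM in vehicle (4.17 ± 0.32), and CYP4F11, a fatty acid hydroxylase, at 2.34 and 3.19 CPM with Okbyeongpung-san 500, against 0.493, 0.444 and 0.424 CPM in vehicle (2.60 ± 0.34). GCNT3 had 185 counts in the extract libraries and 3 in the vehicle libraries, a ratio of 86.6 after library totals with an exact 95% interval of 29.2 to 424 for counting error. DGKG, a diacylglycerol kinase, was at 34 and 34.2 CPM with Okbyeongpung-san 500, against 10.4, 10.7 and 10.6 CPM in vehicle with little spread in either group (1.69 ± 0.07, adjusted p = 1.63e-06). NPEPPSP1, a pseudogene whose reads can belong to its parent gene, was at 0 in vehicle and at 2.98 and 2.47 CPM with the extract, but 1 library at 100 µg/mL and both at 20 µg/mL also held 1.19 to 2.78 CPM, and its call was lost without replicate 2 of the extract (adjusted p = 0.0629). Among nuclear long noncoding RNAs MALAT1 was at 2098 and 1658 CPM with Okbyeongpung-san 500, against 962, 749 and 905 CPM in vehicle (1.11 ± 0.13) and NEAT1, the scaffold of paraspeckles, at 898 and 762 CPM with Okbyeongpung-san 500, against 369.6, 338 and 339.5 CPM in vehicle (1.25 ± 0.11). MALAT1 stood at 1313 and 1381 CPM at 20 µg/mL, between the groups.

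Signalling genes moved in both directions. EGR1, an immediate early transcription factor (chr5:138465490-138469315), was at 30.3 and 33.9 CPM with Okbyeongpung-san 500, against 144, 157 and 152 CPM in vehicle (-2.23 ± 0.09, adjusted p = 1.07e-06), and the groups were far apart. Its libraries at 20 and 100 µg/mL, at 43.3 and 48.6 CPM and 49.2 and 52.9 CPM, lay closer to the 500 µg/mL group than to vehicle. EGR3 and FOS fell by 1.25 and 0.79, FOS with a call lost without replicate 2 or 3 of the extract or vehicle replicate 3 (adjusted p up to 0.104). Of 20 immediate early genes 7 fell and 2 rose, JUN (0.41 ± 0.07) and DUSP1 (0.44 ± 0.06). The 10% that rose was below the 13.3% of all genes, and the 35% that fell above their 11.4%. The list median against vehicle was -0.23 at 20, -0.24 at 100 and -0.15 at 500 µg/mL. Between 500 and 20 µg/mL the median was 0.00, with 3 members called higher and 3 lower. Feedback genes of the ERK pathway rose in 8 of 13 and fell in 1, with the phosphatase DUSP6 at 33.6 and 37 CPM with Okbyeongpung-san 500, against 22.7, 22.5 and 19.8 CPM in vehicle (0.70 ± 0.08) and the inhibitors SPRY2 and SPRY4 rising by 0.57 ± 0.08 and 0.50 ± 0.07, while the receptor EPHA2 fell (-0.47 ± 0.06). Of the immediate early genes 3 were called lower without replicate 2 of the extract and 4 without vehicle replicate 3, and of the ERK feedback genes 5 were called higher when vehicle replicate 1, 2 or 3 was left out.

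Of 20 inflammatory genes 11 rose and 3 fell (55% and 15%, beside 13.3% and 11.4% of all genes). The neutrophil chemokine CXCL8 was at 9.24 and 8.59 CPM with Okbyeongpung-san 500, against 3.33, 3.23 and 3.01 CPM in vehicle (1.48 ± 0.17), and its relatives CXCL5, CXCL2 and CXCL3 rose by 1.96, 1.50 and 1.34 from low levels. IL11, a cytokine of the IL-6 family, was at 125 and 140.1 CPM with Okbyeongpung-san 500, against 73.2, 68.1 and 69.7 CPM in vehicle (0.91 ± 0.14), and IL1A and IL1B rose by 1.72 and 1.02. The chemokines that fell were CCL2 (-1.12 ± 0.22), CXCL12 (-1.16 ± 0.13) and CX3CL1 (-1.65 ± 0.31), which attract monocytes and lymphocytes. Without replicate 2 of the extract 6 inflammatory genes were called higher, and 7 without replicate 3 or without vehicle replicate 3. The calls of CXCL5 and CXCL2 were lost without replicate 2 (adjusted p = 0.102 and 0.0532), and that of CXCL3 in 4 of the 5 such fits (adjusted p up to 0.119). Interferon-stimulated genes were called in 2 of 25 upward and 1 downward, a share below that of all genes, and the pair that rose were MX1 (1.44 ± 0.14) and IFI44 (1.11 ± 0.09). In the TGF-beta list 7 of 22 fell and 3 rose (31.8% and 13.6%, beside 11.4% and 13.3% of all genes). EDN1 (endothelin), BMP4 and GDF6 fell by 1.44, 1.17 and 0.82, and INHBA, the activin subunit, rose to 139.6 and 133 CPM with the extract, against 73, 72.4 and 77 CPM in vehicle (0.88 ± 0.06). Of 16 p53 targets 7 rose, with the cell cycle inhibitor CDKN1A at 31.7 and 42.6 CPM with Okbyeongpung-san 500, against 22.8, 20.2 and 20.1 CPM in vehicle (0.82 ± 0.13) and GADD45A rising by 0.75 ± 0.15 (adjusted p = 0.0756 without replicate 2 of the extract). That count was 3 without replicate 2 of the extract and 4 without vehicle replicate 2 or 3.

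Of 43 genes of the extracellular matrix 20 fell and 0 rose, with a median of -0.25. Collagens fell in 10 of 13 and proteoglycans in 4 of 5, against 4 of 16 glycoproteins and 2 of 9 crosslinking enzymes. The crosslinking calls, LOXL1 and LOXL2, were lost without vehicle replicate 1 or 2 or replicate 2 of the extract, COL5A2 and COL11A1 lost theirs in 3 and COL4A2 in 4 of the 5 fits that leave out a library (adjusted p up to 0.159). COL1A1, the main fibrillar collagen (chr17:50183289-50201632), was at 2788 and 2109 CPM with Okbyeongpung-san 500, against 3954, 3938 and 3724 CPM in vehicle (-0.66 ± 0.11, adjusted p = 0.00242), and COL5A1 at 1792 and 1604 CPM with Okbyeongpung-san 500, against 2453, 2549 and 2383 CPM in vehicle (-0.54 ± 0.07). THBS1 (thrombospondin) was at 1093 and 1132 CPM with Okbyeongpung-san 500, against 1863, 1918 and 2116 CPM in vehicle (-0.82 ± 0.09). COL12A1, COL3A1 and the proteoglycan DCN fell by 0.82, 0.70 and 0.69. FN1 (fibronectin) had a fold change of -0.32 ± 0.08, a call lost without TMM and in 4 of the 5 fits that leave out a library (adjusted p up to 0.0671).

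Matrix proteases and inhibitors were split. MMP1, an interstitial collagenase, rose to 60.3 and 60.8 CPM with the extract, against 33.2, 32.3 and 31.9 CPM in vehicle (0.90 ± 0.08), and ADAMTS1 rose by 0.93 ± 0.09, while the inhibitor TIMP3 (-0.89 ± 0.08) and the plasminogen activator PLAT (-0.69 ± 0.10) fell. Of 22 targets of YAP and SRF 12 fell and 0 rose. Among those that fell were SRF itself (-0.48 ± 0.06), AJUBA (-0.50 ± 0.07) and FLNA, an actin crosslinker. FLNA was at 3957 and 3869.8 CPM with Okbyeongpung-san 500, against 4974, 4895 and 5076 CPM in vehicle (-0.35 ± 0.07). Of the 5 fits that leave out a library, the TPM1 call was lost in 4, ANKRD1 in 3 and CCN1 and AMOTL2 in 2 each. Those of SRF, AJUBA and FLNA held in each. The actin genes ACTB and ACTG1 had fold changes of -0.29 ± 0.07 and -0.32 ± 0.07, and the ACTB call was lost without vehicle replicate 2 (adjusted p = 0.0512). Fibroblast markers, which include COL1A1 and DCN, had a summed level of 2665 to 3235 CPM with the extract and 4383 to 4653 CPM in vehicle, with 4 of 6 lower and 1 higher. The part of these markers in the fall was not tested.

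Proliferation genes fell in part and none of those listed rose. Of 36 mitotic genes 17 fell and 0 rose (median -0.25). Their median against vehicle was 0.15 at 20 and 0.16 at 100 µg/mL. Between 500 and 20 µg/mL, 24 of the 36 were called lower and 0 higher, beside 5.1% and 5.21% of all genes. MKI67, a marker of cycling cells, was at 227 and 190.2 CPM with Okbyeongpung-san 500, against 357, 406 and 411 CPM in vehicle (-0.91 ± 0.13, adjusted p = 0.00089), and the kinesin KIF20A at 76.6 and 86.4 CPM with Okbyeongpung-san 500, against 134, 145 and 139.8 CPM in vehicle (-0.77 ± 0.08). FOXM1, which drives the mitotic programme, and PLK1, a mitotic kinase, fell by 0.56 and 0.51. CDK1, CCNB1 and CCNA2 were not called (-0.09, -0.11 and -0.15). Of 42 DNA replication genes 20 fell and 0 rose (median -0.26), with E2F2, a transcription factor of S phase, at 2.91 and 2.61 CPM with Okbyeongpung-san 500, against 5.92, 5.93 and 5 CPM in vehicle (-1.03 ± 0.16), and TYMS and TK1, of thymidine supply, with fold changes of -0.61 ± 0.07 and -0.60 ± 0.11. The helicase genes fell in 7 of 12. The replication median against vehicle was -0.02 at 20 and -0.04 at 100 µg/mL, and 12 of the 42 were called lower at 500 than at 20 µg/mL. Without each library in turn, 17 to 19 replication genes were called lower. The mitotic count was 9 without vehicle replicate 2, 11 without vehicle replicate 3 and 10 without TMM.

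Glucose and energy genes changed in part. Of 32 genes of hypoxia and glycolysis 10 rose and 2 fell, led by NDRG1, a stress-responsive gene, at 154 and 140.1 CPM with Okbyeongpung-san 500, against 57.8, 56.3 and 57.9 CPM in vehicle (1.36 ± 0.07), and by the neuronal glucose transporter SLC2A3 (0.65 ± 0.06). GAPDH, PKM and LDHA were not called, and the 6.25% of this list that fell was below the 11.4% of all genes. The members that fell were CA9, a carbonic anhydrase (-0.42 ± 0.11), and SLC2A1, the widespread glucose transporter (-0.22 ± 0.07), with calls lost in 3 and 4 of the 5 fits that leave out a library (adjusted p up to 0.0861 and 0.123). In those fits 7 or 8 members were called higher and 0 to 5 lower, and the calls of PDK1 and VEGFA were lost in all 5 (adjusted p up to 0.154 and 0.093). TXNIP, which limits glucose uptake, was at 4.98 and 4.71 CPM with Okbyeongpung-san 500, against 9.95, 9.44 and 11 CPM in vehicle (-1.06 ± 0.11), and its relative ARRDC4 at 13 and 10.1 CPM with Okbyeongpung-san 500, against 5.47, 5.73 and 5.77 CPM in vehicle (1.03 ± 0.13). These related arrestin-domain genes moved in opposite directions. They belong to a list of FOXO and insulin feedback genes in which 3 of 12 rose and 3 fell, against 1 and 1 without replicate 2 of the extract. In the glucocorticoid list 2 of 8 rose and 2 fell. The FOXO and the glucocorticoid list thus had 25% called in each direction, beside 13.3% higher and 11.4% lower of all genes. Of 9 genes of conjugation and drug export 3 rose and 1 fell (33.3% and 11.1%, beside 13.3% and 11.4% of all genes). MGST1, a microsomal glutathione transferase, was at 77.9 and 87.9 CPM with Okbyeongpung-san 500, against 45.3, 46.4 and 43 CPM in vehicle (0.89 ± 0.09), and the exporter ABCG2 fell (-0.44 ± 0.10), a call lost without replicate 2 of the extract (adjusted p = 0.0662). Of 5 tested targets of the aryl hydrocarbon receptor TIPARP rose (0.44 ± 0.07), with its libraries at 20 µg/mL higher still at 69.4 and 64.2 CPM, and AHRR fell (-0.36 ± 0.06). These single calls are 20% each way, beside 13.3% and 11.4% of all genes, and describe the genes rather than the list. Ribosomal protein genes were called in 3 of 75 upward and 2 downward, below the shares of all genes.

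Mitochondrially encoded transcripts fell in 12 of 13, with a median of -1.12. MT-ND4, a complex I subunit, was at 6479 and 7099.7 CPM with Okbyeongpung-san 500, against 14459, 15079 and 15083 CPM in vehicle (-1.13 ± 0.07), and MT-CO2, of cytochrome oxidase, at 3982 and 6345 CPM with Okbyeongpung-san 500, against 11570.0, 12572 and 11450.0 CPM in vehicle (-1.20 ± 0.16), where replicate 2 of the extract was the lower. MT-ND3 was not called (-0.45 ± 0.25), and its extract libraries were at 625 and 1209 CPM. Mitochondrial counts were 5.676% and 6.805% of the extract libraries and 10.47%, 10.7% and 10.63% of vehicle libraries (exact two-sided permutation test over the 5 libraries, p = 0.2, the smallest value that 2 against 3 libraries allow). At 20 µg/mL the share was 8.109% and 8.359%, and at 100 µg/mL 8.448% and 8.041%, so the lower concentrations lay between the groups with a median log2 fold change against vehicle of -0.57 at 20 µg/mL. Nuclear genes of the respiratory chain were called in 7 of 42 upward (16.7%, near the 13.3% of all genes) and 0 downward, a count that was 0 to 3 without each library in turn and 3 with DESeq2 on the same genes.

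Lower concentrations were set beside the highest one gene by gene. Of 2209 genes called higher 1471 (66.6%) were above all 3 vehicle and all 4 lower-dose libraries in both libraries at 500 µg/mL, beside 14% of all tested genes, and of 1904 called lower 1384 (72.7%) were below them, beside 13.6%. Called genes already lay beyond vehicle for the most part, and among all genes whose groups did not overlap the shares were 49.7% above and 54.1% below. In the edgeR test of 500 against 20 µg/mL itself, 732 of the 2209 were also called higher and 675 of the 1904 also called lower. Against the same vehicle, 372 genes (2.24%) were called at 20 µg/mL and 609 (3.66%) at 100 µg/mL, and 1716 (10.3%) were called between 500 and 20 µg/mL. HMOX1 was at 57.2 and 60.8 CPM at 20, 72.8 and 70.7 CPM at 100 and 411 and 457 CPM at 500 µg/mL. SLC7A11 stood at 181 and 140.1 CPM at 20, 189 and 176 CPM at 100 and 361 and 316 CPM at 500 µg/mL, and all 6 libraries were above those of vehicle. The contrasts of 20, 100 and 500 µg/mL with vehicle share the vehicle libraries.

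**Figure D4:**
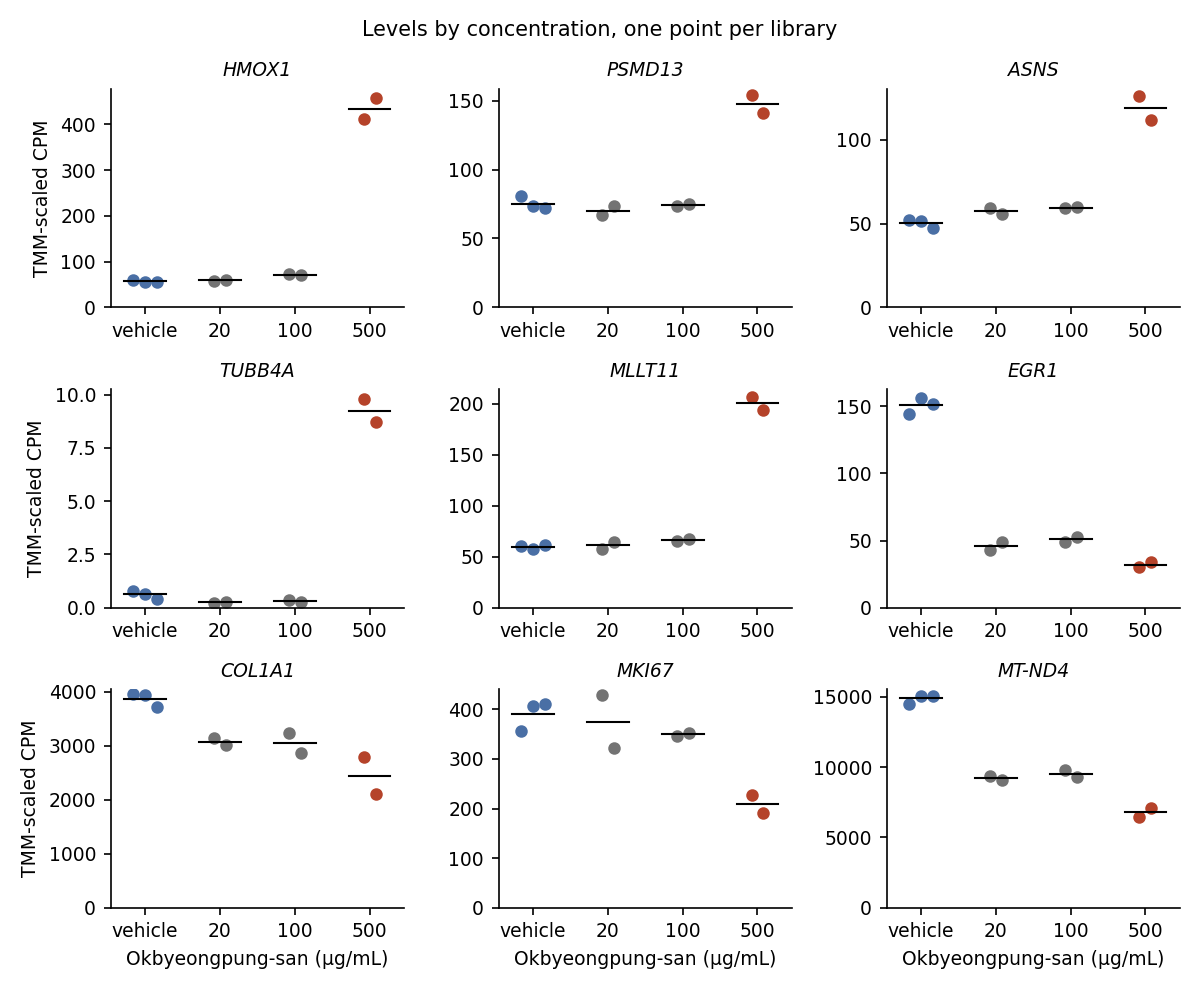
TMM-scaled CPM per library (points) and group mean (line) in vehicle (blue), at 20 and 100 µg/mL (grey) and at 500 µg/mL (red) of Okbyeongpung-san for 9 genes, each axis starting at 0. HMOX1, PSMD13, ASNS, TUBB4A and MLLT11 change little at 20 and 100 µg/mL beside their rise at 500 µg/mL. HMOX1 was called higher than vehicle at 100 µg/mL (log2 fold change 0.34 ± 0.07). EGR1 and MT-ND4 are already lower at 20 µg/mL.

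The lowest fold change among genes with a symbol belonged to TUBA1B-AS1, annotated antisense to the tubulin gene TUBA1B on chromosome 12 (chr12:49127782-49147869 and chr12:49127782-49131397). It was at 0.717 and 0 CPM with Okbyeongpung-san 500, against 181, 159 and 195 CPM in vehicle (-8.96 ± 0.37, but -7.96 with replicate 2 alone and -15.2 with replicate 3 alone), and its plain CPM was 153.9 to 191.3 in the vehicle libraries and 0 to 2.083 in all 27 others, so libraries of every treatment differed from vehicle alike. Reads of a gene and its antisense partner cannot be told apart with certainty here, since the strand setting of the counting is not given. Much of the low end of the table was of this kind. PEDS1-UBE2V1 and DNAAF4-CCPG1 (read-through genes), PVRIG2P, POM121B, SNRPGP10 and MTCO2P12 (pseudogenes or related copies) and THBS1-AS1, USP34-DT and PRR11-AS1 (antisense or divergent transcripts) fell by 1.88 to 2.91. DNAAF4-CCPG1 was at 0 in all 4 lower-dose libraries too. Single extract libraries gave unlike values for some of these, as log2 fold changes of -1.91 (adjusted p = 0.117) and -8.85 with replicates 2 and 3 taken alone for DNAAF4-CCPG1, and -9.19 and -1.9 for PVRIG2P. The DNAAF4-CCPG1 call was lost in 3 of the 5 fits that leave out a library (adjusted p up to 0.118), that of SNRPGP10 in 2 (up to 0.0891) and that of MTCO2P12 in 1 (0.0574). CYP4X1, a cytochrome P450 with protein-coding annotation, was at 0.151 and 0.399 CPM with Okbyeongpung-san 500, against 0.781, 1.21 and 1.31 CPM in vehicle (-1.97 ± 0.47), with an adjusted p of 0.106 without replicate 2 of the extract.

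Further protein-coding genes of moderate abundance, chosen after their values were seen, stood clear of all 7 other libraries. Part of the difference from vehicle was already called at lower concentrations for BEST1 and CREB3L1. BEST1 had log2 fold changes against vehicle of 1.02 at 20 and 0.94 at 100 µg/mL, and CREB3L1 of -0.48 at both. The other genes of this paragraph were not called against vehicle at 20 or 100 µg/mL. BEST1, a chloride channel, was at 20.4 and 20.2 CPM with Okbyeongpung-san 500, against 4.23, 3.35 and 3.73 CPM in vehicle (2.43 ± 0.13), B4GALNT1, a ganglioside synthase, at 71 and 81.5 CPM with Okbyeongpung-san 500, against 25.5, 24.5 and 27.7 CPM in vehicle (1.56 ± 0.09), and RND3, an atypical small GTPase, at 177 and 145 CPM with Okbyeongpung-san 500, against 55.9, 56.6 and 59 CPM in vehicle (1.49 ± 0.09). Lower were VAV3, a guanine nucleotide exchange factor, at 3.32 and 4.46 CPM with Okbyeongpung-san 500, against 11.9, 13.8 and 13.1 CPM in vehicle (-1.73 ± 0.14), GNAO1, a G protein subunit abundant in brain, at 4.64 and 5.11 CPM with Okbyeongpung-san 500, against 12.9, 14.5 and 13.5 CPM in vehicle (-1.49 ± 0.11), CREB3L1, a transcription factor of collagen secretion, at 194 and 164 CPM with Okbyeongpung-san 500, against 380.4, 389 and 397 CPM in vehicle (-1.12 ± 0.09), and PIEZO2, a mechanosensitive channel, at 15.7 and 16.4 CPM with Okbyeongpung-san 500, against 31.2, 39.6 and 39 CPM in vehicle (-1.19 ± 0.12).

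The label of an astrocytoma line was checked against markers. GFAP, the astrocyte filament, was at 0.113 and 0.145 CPM with the extract and 0.123, 0.0403 and 0.127 CPM in vehicle, and S100B, a glial calcium-binding protein, at 0.113 and 0.109 CPM with the extract and 0.247, 0.121 and 0.0424 CPM in vehicle. Both were too low to test, and AQP4, the astrocyte water channel, was at 0 in all 5 libraries. VIM (vimentin) was at 3722 and 4721 CPM with Okbyeongpung-san 500, against 5014, 4956 and 4942 CPM in vehicle (-0.24 ± 0.10, adjusted p = 0.129), and SOX9, a glial and mesenchymal transcription factor, fell (-0.51 ± 0.07, adjusted p = 0.000984). The 8 astrocyte markers summed to 294 to 309 CPM with the extract and 315 to 330 CPM in vehicle, with 0 of 3 tested higher and 1 lower. The 6 markers of glial or mesenchymal glioma, VIM among them, summed to 6832 to 8271 CPM with the extract and 8411 to 8534 CPM in vehicle. Of the 4 tested NES (nestin, a filament of neural progenitors) rose by 0.84 ± 0.13 and 0 fell. Markers of epithelial cells summed to 77.7 to 80.4 CPM with the extract and 142 to 152 CPM in vehicle, with 1 of 4 lower. Sums for microglia and leukocytes, endothelium and oligodendrocytes were 155 to 244, 34.3 to 44.7 and 8.09 to 8.6 CPM with the extract, against 186 to 210, 32 to 38 and 6.29 to 7.21 CPM in vehicle, and AIF1, CD3E and MOG were at 0. Of these lists a single marker was called, PTPRC (CD45, the pan-leukocyte antigen), which fell (-0.76 ± 0.12, adjusted p = 0.00198). The 2 extract libraries, of title batches E and D, differed more from each other than the vehicle libraries, all of batch E, did. Chi-square per degree of freedom was 25.5 between them and 3.21 to 7.11 between vehicle pairs, and 37 genes of at least 5 CPM differed over 2-fold between them, against 6 to 10 between vehicle pairs. Title batch and spread between replicates cannot be told apart in this comparison. The part of this spread in the calls was not tested beyond the fits that leave out each library.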

How the data were processed

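RNA of SW1783 cells was sequenced as 100 bp paired-end reads from a directional library kit, per the labels' protocols. The authors deposited RSEM expected counts per gene. The submitters' processing notes name FastQC 0.11.9, Trim Galore 0.6.5, STAR 2.7.3a, RSEM 1.3.3 and the build hg38 (GRCh38). Which annotation release was used, and how strand was set in counting, are not given in the sources used here. Symbols and coordinates came from GENCODE release 29, which matched 57055 of 60675 entries.

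Expected counts were rounded to whole numbers. Genes were kept by edgeR's filterByExpr (minimum count 10, minimum total 15), scaled by TMM and tested with the quasi-likelihood F test (edgeR 4.0.16, R 4.3.3) in 1 fit of 9 libraries, the 3 vehicle libraries and 2 each at 20, 100 and 500 µg/mL, with 5 residual degrees of freedom. P-values were adjusted by Benjamini-Hochberg over 16643 genes, with a threshold of 0.05. The fit was tested on simulated counts with 200 changed genes. Alternatives included DESeq2 1.42.0, other scalings and filters, other sets of libraries and each library left out in turn. Totals of 24.1 to 27.3 M counts per library limit what can be seen of genes under about 1 CPM.

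Named genes were the 12 highest and 12 lowest fold changes with no overlap and at least 1 CPM, the 8 largest gains and losses in CPM, up to 4 called genes per list, the 6 smallest p-values and 4 glial markers. Other named genes were chosen after their values were seen. Members and lists were chosen with earlier results of these data known.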

Additional observations from a re-analysis of the deposited data

How the results depend on the processing

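The count of 4113 called genes was 2228 to 3869 when 1 library was left out, with 1151 to 1940 higher and 1077 to 1929 lower. It was lowest without replicate 2 of Okbyeongpung-san 500 and highest without replicate 3, and the fit with 1 extract library assumes that it varies like the other groups. DESeq2 called 3473 genes on the same set and 3497 with its own filtering, RLE scaling gave 4096, library totals 4437, scaling without mitochondrial genes 4078, no filter 4705, a filter of 1 CPM 4133, the 5 libraries alone 4372, a fit of 27 libraries 5777 and a term for title batch 5562. None of the genes that the naming rule chose changed its direction in those of the 16 alternatives that tested it, and 1661 of the 4113 genes were called in the same direction in all of them. Library totals moved the median log2 fold change of all genes by 0.063, against -0.0217 without replicate 3 of the extract (the median itself, 0.01, changes sign there), and the share of calls that were higher to 68.04%, against 53.71%. With the replicate block 3674 genes were called. The deviation of replicate 2 of the extract from its group mean correlated at 0.035 with that of vehicle replicate 2. With vehicle replicates 1 and 3 the correlations were -0.18 and 0.17. Within the extract set the deviation of replicate 2 at 500 µg/mL correlated at 0.23 and 0.28 with that of replicate 2 at 100 and 20 µg/mL. In the extract groups replicate 2 differs from replicate 3 also in title batch, and all vehicle libraries are of batch E. These correlations therefore cannot show whether replicate numbers pair the libraries. With the block, an alternative chosen after seeing the data, 1763 genes instead of 1716 were called between 500 and 20 µg/mL, and again 30 of 31 proteasome genes higher. The share of mitochondrial counts differed by -4.358 percentage points (500 minus vehicle), and by -4.922 to -3.794 when 1 library was left out. Of the named genes 30 lost their call without replicate 2 of the extract, 15 without replicate 3 and 11 to 17 without a vehicle library, and the cause was not tested. VIM, not called here, was called lower with no filter (adjusted p = 0.011), in the fit of 27 libraries (0.0343), with the batch term (0.00401) and without replicate 3 of the extract (0.0114). Depth limits the genes under about 1 CPM, and the vehicle libraries form a name set of their own in every one of these fits.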
